A study of Homo sapiens with 4 samples.

Results

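The lecticans, link proteins, tenascins, CD44 and HAS2 build and bind the hyaluronan matrix of brain and of glioma. Here 10 of these genes were followed in U87MG cells, out of 57905 genes counted. They were VCAN, NCAN, BCAN, ACAN, HAPLN1, HAPLN3, TNC, TNR, CD44 and HAS2. The genes were chosen by name, with their chaetocin against control values already known, and because VCAN and NCAN moved in opposite directions. Their differences between the groups are therefore given as a description, without p-values. Of the 10, 7 passed the filter on low counts and were among the 16416 genes tested, and ACAN, HAPLN1 and TNR did not pass.

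U87MG is an established human glioblastoma line, grown here in serum and used at passages 8 to 10, with a wild type genotype in every library. Chaetocin is a fungal metabolite described as an inhibitor of the histone methyltransferase SUV39H1, and 2 samples received it at 50 nM, dissolved in DMSO, for 24 h. The other 2 samples, the control group, were left untreated, and no DMSO is named for them. Polyadenylated RNA was sequenced, and nothing in the labels says that the 2 samples of a group were separate cultures, so the p-values given here measure only the spread between these samples, which may be technical. U87MG in culture lacks the tissue around a tumor.

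Lecticans are chondroitin sulfate proteoglycans. One end of the core protein binds hyaluronan, a long sugar polymer spun out at the cell surface by hyaluronan synthases, and the other end binds tenascins. Link proteins hold the lectican on the hyaluronan chain, and CD44 is the main cell surface receptor for hyaluronan. In adult brain this lattice forms perineuronal nets around neurons, and in glioma versican and tenascin-C are known as abundant parts of the tumor matrix.

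The libraries held between 21241984 and 32590479 counts. A read was found for 24235 and 24174 genes in the controls, for 24699 in chaetocin sample 1 and for 27748 in chaetocin sample 2. Levels are given as CPM, reads scaled to a common library size with TMM factors, and 3 reads were worth between 0.0844 and 0.138 CPM. This is the level that a count of 0 still allows, and such floors and intervals cover counting error only, because PCR copies are not independent molecules. Log2 CPM correlated across genes with r = 0.989 between the controls, 0.982 between the chaetocin libraries and from 0.970 to 0.977 between the groups; genes are not independent replicates.

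The bases just before the start that RefSeq gives for a gene are shown for 6 members, to set expressed members beside ACAN and HAPLN1, which had at most 3 reads in a library. The table, on GRCh38.p14, matched 7 of the 10 members, and NCAN, TNR and HAS2 are not in it. Each stretch runs 5′ to 3′ on the strand of the gene, from 36 to 7 bases before RefSeq's start, and capitals mark the letters TATAA. In 5 of the 6, all but ACAN, the stretch lies inside the longer GENCODE v29 span of the gene given with its values.
BCAN (chr1:156642081-156642110, plus strand): aagggggttttgtgctgcgccgggagggcc
ACAN (chr15:88803400-88803429, plus strand): tccctatgtatgtgtcacagcgcgccatgc
HAPLN1 (chr5:83720862-83720891, minus strand): gacaaacttaaggtgaggagaaagagcgct
HAPLN3 (chr15:88895551-88895580, minus strand): gggtttttctgctgccgcttcctttctgcc
TNC (chr9:115118164-115118193, minus strand): agctcgctaTATAAgccagccaaagttggc
CD44 (chr11:35139135-35139164, plus strand): cctcgaataaaaactgcagccaacttccga
TATAA, searched on both strands, stood in the stretch of TNC and in none of the other 5 shown. Among all 35116 promoters of the table, 5.01% held it in the same stretch. Other transcripts of these genes can start elsewhere, and a match of letters is a description, not a site in use.

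VCAN encodes versican, the lectican best known from glioma and from embryonic matrix. Versican transcripts were lower in both chaetocin samples. VCAN (ENSG00000038427) lies on chromosome 5 from 83471465 to 83582303 on the plus strand of GRCh38. The controls held 10295 and 11754 VCAN reads, and the treated libraries 5275 and 7212. Scaled for depth, these were 422 and 409 CPM against 242 and 203 CPM. The higher chaetocin sample was well below the lower control, and the controls differed from each other by only 1.03-fold. The fitted log2 fold change was −0.90 with a standard error of 0.17, and VCAN was among the genes called lower in the edgeR fit over all genes, whose threshold was an adjusted p of 0.05. Since the genes were chosen on this contrast, such a call is a description here and for the other members. The call was lost when either control was left out, with log2 fold changes of −0.89 and −0.93. In bulk RNA, fewer cells that make a transcript and less of it per cell cannot be told apart.

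NCAN encodes neurocan, a lectican made chiefly by neurons and astrocytes of the nervous system. It went from no reads to a low level. NCAN (ENSG00000130287), on chromosome 19 from 19211973 to 19252233 on the plus strand, had 0 reads in both controls and 23 and 94 reads in the chaetocin samples. These came to 1.06 and 2.65 CPM. Against 3 reads over both controls, which correspond to 0.0565 CPM, NCAN was 18.7-fold higher in chaetocin sample 1 and 46.9-fold higher in sample 2. Only the control side is bounded in these folds, and the counting error of the 23 and 94 reads is left out. The chaetocin samples differed from each other by 2.50-fold. Chaetocin sample 2, which had the 94 NCAN reads, had a read in 27748 genes, against 24699 in sample 1. A gene with 0 control reads passes the filter only through the chaetocin samples, so it had to differ once it was tested. NCAN was called higher, and its fitted fold change is not given as a size because it depends on the prior count added to the zeros.

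BCAN encodes brevican, a lectican of perineuronal nets and of gliomas. It was read at a low level in every library. BCAN (ENSG00000132692; chromosome 1, 156641390 to 156659532, plus strand) had 59 and 41 reads in the controls and 26 and 38 after chaetocin. The values were 2.42 and 1.43 CPM in the controls and 1.20 and 1.07 CPM in the chaetocin samples. Both chaetocin samples lay below both controls, while the controls themselves differed by 1.66-fold. The log2 fold change was −0.76 with a standard error of 0.40, and BCAN was not called. AL365181.3, a gene that overlaps BCAN on the other strand, took 355 and 344 reads in the controls and 295 and 411 in the chaetocin samples. Whether the counting used strand is not given in the sources used here, so reads of BCAN and of this neighbor cannot be told apart.

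ACAN encodes aggrecan, the lectican of cartilage and of perineuronal nets. ACAN (ENSG00000157766; chromosome 15, 88803442 to 88875354, plus strand) had 0 and 2 reads in the controls and 0 and 2 in the chaetocin samples. Aggrecan transcripts were thus not above the floor of 3 reads in any library.

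Versican made up nearly all lectican reads in every library. VCAN held 99.4% and 99.6% of them in the controls and 99.1% and 98.2% in the chaetocin samples. The share of NCAN was 0% in both controls, with upper 95% Wilson limits of 0.0371% and 0.0326%. It was 0.432% in chaetocin sample 1, with an interval from 0.288% to 0.647%. In chaetocin sample 2 it was 1.28%, with an interval from 1.05% to 1.56%. Per exonic length, NCAN came to 0.914% and 2.68% of lectican transcripts. The reads that NCAN gained were thus few beside those that VCAN still had, and BCAN kept between 0.348% and 0.570% of lectican reads in all 4 libraries.

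**Figure D1:**
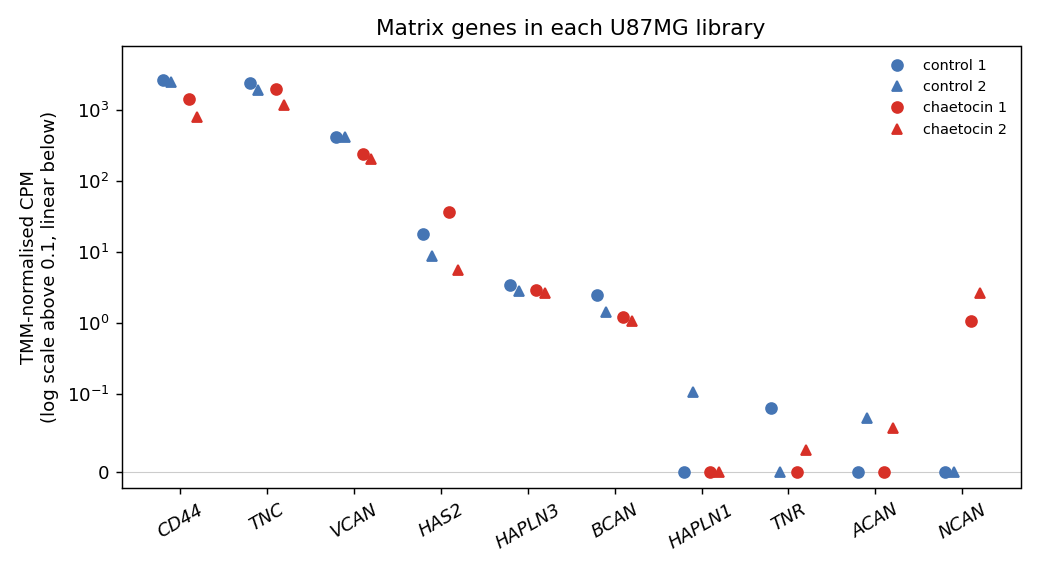
Level of each of the 10 matrix genes in each library, in TMM-normalised CPM on a scale that is logarithmic above 0.1 and linear below; circles are replicate 1, triangles replicate 2, blue is control and red chaetocin. CD44 and VCAN show both red points below both blue ones, NCAN shows blue points at 0 and red points at 1.06 and 2.65 CPM, and the points of HAS2 are spread from 5.60 to 36.1 CPM.

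HAPLN1 and HAPLN3 encode link proteins, which clamp lecticans to hyaluronan. HAPLN1 (ENSG00000145681; chromosome 5, 83637805 to 83721613, minus strand) had 3 reads in control sample 2 and 0 in the other 3 libraries. HAPLN3 (ENSG00000140511; chromosome 15, 88877288 to 88895626, minus strand), the link protein gene found widely outside the nervous system, was the one that U87MG cells expressed. It had 3.44 and 2.78 CPM in the controls and 2.90 and 2.59 CPM in the chaetocin samples, from 63 to 92 reads. The groups overlapped, and the log2 fold change was −0.18 with a standard error of 0.29. HAPLN3 was not called.

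TNC encodes tenascin-C, a large extracellular glycoprotein of tumor stroma and wound edges. It was among the most abundant transcripts of these cells. TNC (ENSG00000041982; chromosome 9, 115019578 to 115118257, minus strand) had 58630 and 55681 reads in the controls and 43236 and 41144 after chaetocin. The levels were 2402 and 1938 CPM in the controls and 1987 and 1158 CPM in the chaetocin samples. Chaetocin sample 1 lay between the controls and only sample 2 lay below both. The log2 fold change was −0.46 with a standard error of 0.28, and TNC was not called. Without chaetocin sample 1 it was called lower, at −0.90, and without chaetocin sample 2 it stood at −0.14 and was not called. TNR, which encodes tenascin-R, the tenascin of oligodendrocytes and perineuronal nets, had 2 and 0 reads in the controls and 0 and 1 in the chaetocin samples (ENSG00000116147; chromosome 1, 175315194 to 175743770, minus strand).

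CD44 encodes the hyaluronan receptor that marks the mesenchymal state of glioblastoma. CD44 (ENSG00000026508; chromosome 11, 35138870 to 35232402, plus strand) had 64744 and 71275 reads in the controls and 31146 and 28332 in the chaetocin samples. The levels were 2653 and 2480 CPM against 1431 and 798 CPM. Both chaetocin samples lay far below the controls, and they also differed from each other by 1.79-fold. The log2 fold change of −1.20 (standard error 0.28) was larger in size than that of VCAN, but CD44 was not called. It was called lower when any library other than control sample 2 was left out, by DESeq2, without the filter and with a replicate block, with log2 fold changes from −1.68 to −0.85 over all alternatives.

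HAS2 encodes the hyaluronan synthase that makes long chains. HAS2 (ENSG00000170961; chromosome 8, 121612116 to 121641390, minus strand) had 436 and 253 reads in the controls, or 17.9 and 8.81 CPM. It had 786 and 199 reads in the chaetocin samples, or 36.1 and 5.60 CPM. Chaetocin sample 1 was therefore the highest and chaetocin sample 2 the lowest of the 4 libraries. The log2 fold change was 0.63 with a standard error of 0.91, and HAS2 was not called. It turned to −1.24 without chaetocin sample 1, and without control sample 1 it was called higher at 1.22. HAS2-AS1, a gene that overlaps HAS2 on the other strand, took 74 and 44 reads in the controls and 91 and 52 in the chaetocin samples. Since the use of strand in counting is not given, reads of HAS2 and of HAS2-AS1 cannot be told apart. No direction can be given for HAS2.

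In sum over the members, 1 of the 7 tested was called higher (NCAN), where 1.11% of all 16416 genes were, and 1 was called lower (VCAN), where 0.743% of all genes were. Both chaetocin samples lay below both controls in 3 members (VCAN, BCAN and CD44), against 26.0% of all genes, and above both in 1 (NCAN), against 26.8%. The median log2 fold change of the 7 was −0.46, and that of all genes tested was 0.0079. The genes were picked for this contrast, so nothing is read from these shares.

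**Figure D2:**
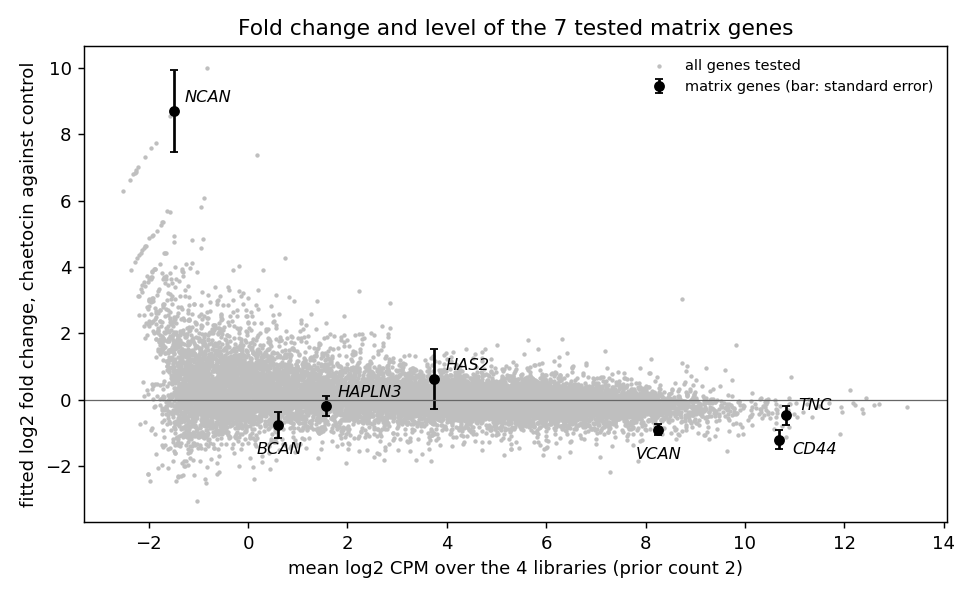
Fitted log2 fold change of chaetocin against control (vertical axis) against the mean log2 CPM over the 4 libraries (horizontal axis) for all 16416 tested genes in grey and the 7 tested matrix genes in black, with bars of 1 standard error. VCAN, CD44, BCAN, TNC and HAPLN3 lie below 0, and the bars of HAPLN3 and HAS2 cross 0. The position of NCAN depends on the prior count since its controls are at 0.

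The members spanned a wide range of levels, which are compared here per kilobase of exon. In the controls CD44 had 257 ± 12.2 CPM per kb (SD, n = 2 samples here and for the levels that follow), TNC had 225 ± 34.1 and VCAN had 28.0 ± 0.610. HAS2 followed with 3.18 ± 1.53, HAPLN3 with 0.883 ± 0.132 and BCAN with 0.390 ± 0.142 CPM per kb. HAPLN1, ACAN and TNR were at 0.0075, 0.0032 and 0.0032 CPM per kb, and NCAN was at 0. On this length CD44 and TNC differed by less than their spread, and so did HAPLN1, ACAN and TNR, while the steps from TNC to VCAN and from VCAN to HAS2 exceeded it. With the length of the longest transcript in place of the exon union the order was the same, but CD44 and TNC stood further apart, at 448 and 284 CPM per kb.

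With chaetocin the order at the top changed. TNC had 163 ± 60.8 CPM per kb and CD44 had 111 ± 44.8, a difference within their spread. VCAN had 15.0 ± 1.88 CPM per kb and HAS2 had 4.98 ± 5.15. HAPLN3 stood at 0.778 ± 0.0613, NCAN at 0.268 ± 0.163 and BCAN at 0.230 ± 0.0180 CPM per kb. Among 15981 tested genes with a length, CD44 moved from rank 87 to 238 and VCAN from 1656 to 3011, while TNC moved from 98 to 128. NCAN entered at rank 14171, close to BCAN at 14439.

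Ratios within a library do not depend on its depth. Per length, TNC stood at 0.940 and 0.811 of CD44 in the controls and at 1.44 and 1.51 in the chaetocin samples. The 2 groups did not overlap, and on this length tenascin-C passed CD44 in both treated libraries. On the length of the longest transcript they stood closer, with chaetocin means of 206 CPM per kb for TNC and 194 for CD44. TNC stood at 8.77 and 7.29 times VCAN in the controls and at 12.6 and 8.78 times in the chaetocin samples, 2 ranges that nearly touch. CD44 stood at 9.32 and 8.99 times VCAN in the controls, at 8.75 times in chaetocin sample 1 and at 5.82 times in sample 2. VCAN, TNC and CD44 together set the total of the members, which was 5501 and 4840 CPM in the controls and 3702 and 2170 CPM after chaetocin.

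Over all genes the chaetocin samples were further apart from each other than the controls, and the members differed in how much they shared of this. The median tested gene differed 1.13-fold between the controls and 1.22-fold between the chaetocin samples. VCAN stayed near that, at 1.03-fold and 1.19-fold. TNC differed 1.24-fold and 1.72-fold, and CD44 1.07-fold and 1.79-fold. HAS2 differed 2.02-fold between the controls and 6.38-fold between the chaetocin samples, more than 99.9% of tested genes. HAPLN3 and BCAN, both low, went the other way, at 1.23-fold and 1.66-fold between the controls and 1.11-fold each between the chaetocin samples. Measured from the control mean on the log2 scale, chaetocin samples 1 and 2 stood at −0.78 and −1.03 for VCAN, at −0.84 and −1.69 for CD44 and at −0.12 and −0.90 for TNC. Sample 2 was the lower one for VCAN, BCAN, HAPLN3, TNC, CD44 and HAS2, and the higher one for NCAN.

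**Figure D3:**
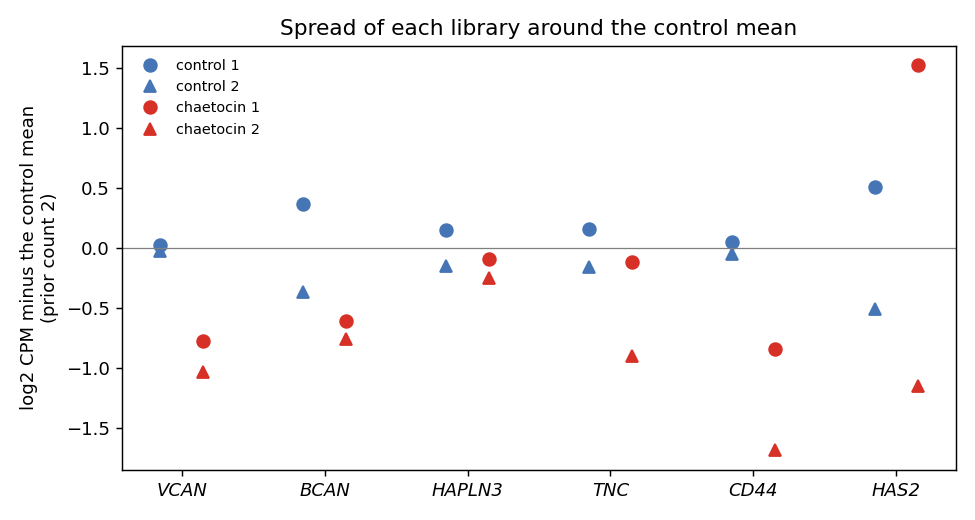
Log2 CPM of each library minus the mean of the 2 controls (vertical axis, with a prior count of 2) for the 6 tested matrix genes with control reads; circles are replicate 1, triangles replicate 2, blue is control and red chaetocin. The red points of VCAN at −0.78 and −1.03 lie close together, those of HAS2 at 1.52 and −1.15 lie on either side of the controls.

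Lectican genes and link protein genes stand side by side in the genome, and the neighbors of VCAN and NCAN were read for their own values. HAPLN1 lies 55501 bp beyond VCAN and had at most 3 reads in a library. XRCC4, a DNA repair gene 117677 bp before VCAN, had 15.2 and 15.5 CPM in the controls and 19.3 and 18.7 CPM after chaetocin, at a log2 fold change of 0.31 (standard error 0.17, edgeR adjusted p = 0.349). HAPLN4 lies 3407 bp beyond NCAN and had 0 reads in every library, although NCAN had reads after chaetocin. NR2C2AP, 8548 bp before NCAN, had 10.4 and 13.6 CPM in the controls and 14.4 and 12.3 CPM after chaetocin, at a log2 fold change of 0.15 (edgeR adjusted p = 0.748). HAPLN2, 15664 bp from BCAN, had 0 reads, and HAPLN3 was read in every library while ACAN, 1933 bp away, was at the floor.

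Partner genes were grouped by role into 9 lists of 116 genes in all, of which 89 were tested. In these lists 2 genes were called higher and 3 lower by edgeR, where 1.11% and 0.743% of all genes were, 33 log2 fold changes were above 0 and 56 below, and their median was −0.12. No list had more than 1 call. An unadjusted p under 0.05 was reached by 40 of the 89, and by 20.3% of all genes.

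Enzymes that make or cut hyaluronan, other than HAS2, and proteins that cross-link it formed a list of 15 genes with 9 tested, of which 2 were above 0 and 7 below, with a median log2 fold change of −0.45. CEMIP, which is needed for breakdown of hyaluronan at the cell surface, was the 1 gene called. It had 42.0 and 45.8 CPM in the controls and 13.7 and 17.3 CPM in the chaetocin samples, at −1.50 on the log2 scale (standard error 0.18, edgeR adjusted p = 0.0205). The other hyaluronan synthases are named here for their role, after their values were seen. HAS1 had 49.2 and 54.5 CPM in the controls and 48.5 and 15.9 CPM after chaetocin (−0.70, edgeR adjusted p = 0.429). HAS3 had 1.23 and 1.57 CPM in the controls and 2.25 and 1.77 CPM after chaetocin (0.51, edgeR adjusted p = 0.462). HAS1 was low in the same chaetocin library as HAS2, and among the synthases no call was made. Of the 8 other hyaluronan receptors, 7 were tested, with a median of −0.06. None was called by edgeR or by DESeq2, and 1 had an unadjusted edgeR p under 0.05, beside 20.3% of all genes tested.

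Around CD44, the list of linkers to the cytoskeleton, sheddases and splicing factors had 13 of 14 genes tested, with 6 above 0, 7 below and a median of −0.05. MMP14, a membrane protease that cuts CD44 among other substrates, was the 1 called. It had 262 and 342 CPM in the controls and 133 and 127 CPM after chaetocin, at −1.22 (standard error 0.18, edgeR adjusted p = 0.0279). Among the proteases that cut lecticans and tenascins and their inhibitor TIMP3, 10 of 14 were tested. None was called by edgeR, and 1 was called lower by DESeq2, beside 481 of the 31692 genes it fitted. An unadjusted edgeR p under 0.05 was reached by 8, beside 20.3% of all genes tested. The log2 fold changes of the 10 were split evenly, with 5 above 0 and 5 below. Both chaetocin samples were above both controls in 4 of the 14 and below in 5, beside 26.8% and 26.0% of all tested genes.

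**Figure D4:**
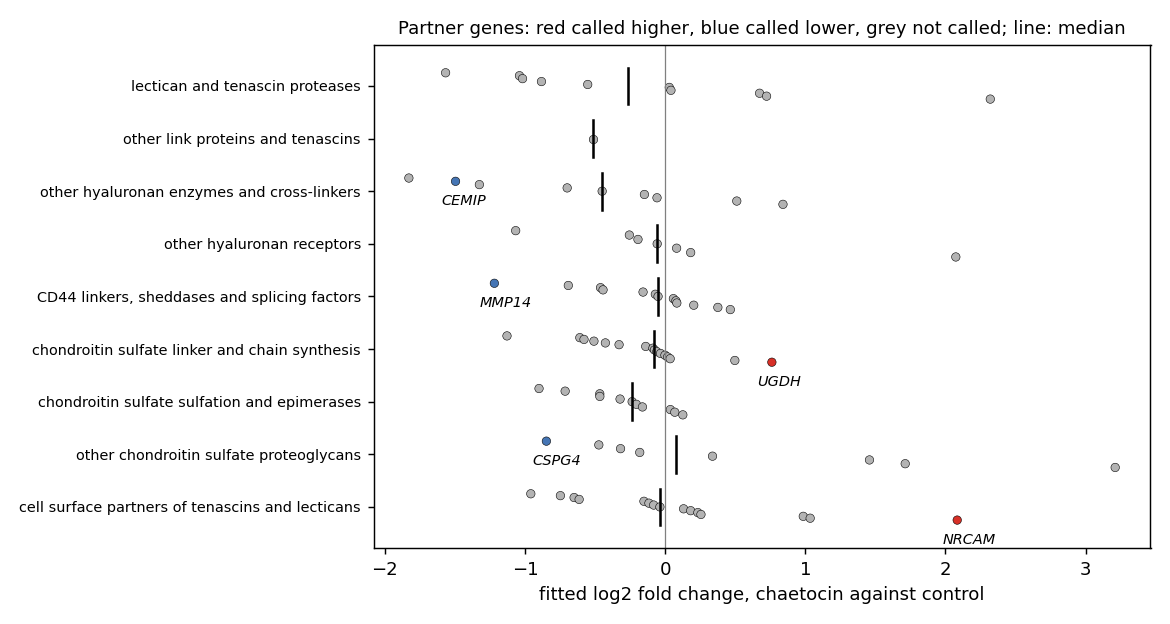
Fitted log2 fold change of chaetocin against control (horizontal axis) for the tested genes of the 9 partner lists (rows); red points were called higher, blue points lower, grey points were not called, and the vertical line in each row is the list's median. The 5 called genes, CEMIP, MMP14, CSPG4, UGDH and NRCAM, lie in 5 different lists.

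Chondroitin sulfate, the sugar side chain of every lectican, is built on a short linker, extended and then sulfated. The 16 linker and chain genes were all tested, with 4 above 0, 12 below and a median of −0.08. By edgeR 1 was called and 6 had an unadjusted p under 0.05, beside 20.3% of all genes tested. DESeq2 called 1 higher and 2 lower, beside 385 and 481 of the 31692 genes it fitted. UGDH, which makes the UDP-glucuronate used for both chondroitin sulfate and hyaluronan, rose from 80.6 and 83.7 CPM in the controls to 139 and 140 CPM after chaetocin, at 0.76 (standard error 0.14, edgeR adjusted p = 0.0396). The call was lost without either control. Of the 13 sulfotransferase, epimerase and sulfate donor genes, 11 were tested, 3 above 0 and 8 below, with a median of −0.24. In 7 of the 13 both chaetocin samples lay below both controls, beside 26.0% of all tested genes. None was called by edgeR, and 4 had an unadjusted edgeR p under 0.05, beside 20.3% of all genes tested. DESeq2 called 2 lower, beside 481 of the 31692 genes it fitted.

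**Figure D5:**
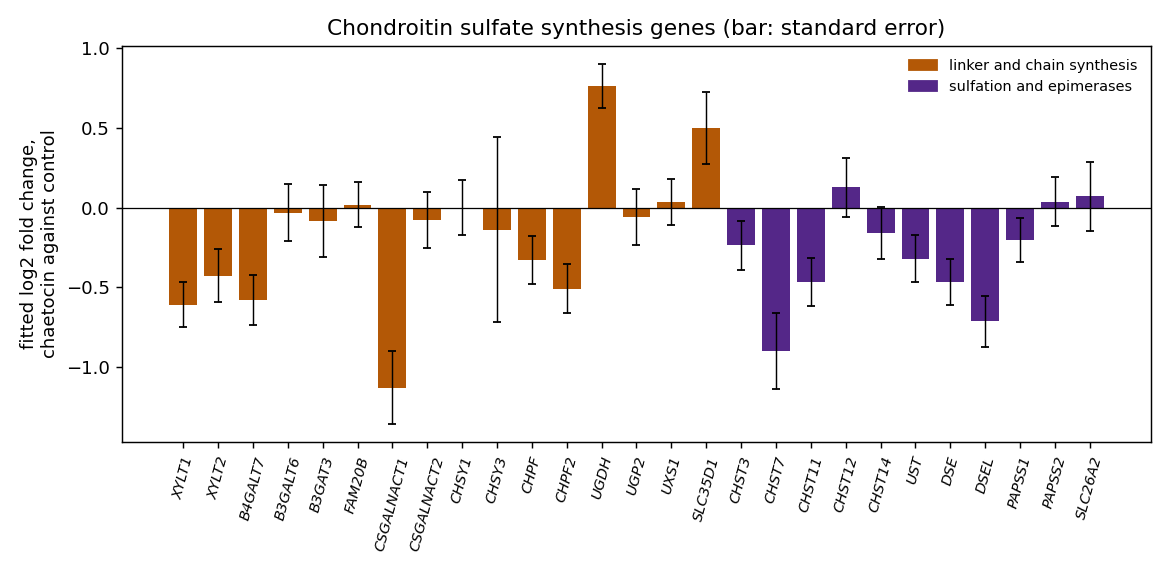
Fitted log2 fold change of chaetocin against control (vertical axis) for the tested genes of chondroitin sulfate synthesis, with bars of 1 standard error; linker and chain genes are orange, sulfation and epimerase genes purple. UGDH stands highest at 0.76, and 8 of the 11 sulfation and epimerase genes lie below 0.

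Among 12 other chondroitin sulfate proteoglycans, 8 were tested, 4 above 0 and 4 below, with a median of 0.08. CSPG4, also known as NG2, a surface proteoglycan of glioma cells and pericytes, fell from 88.1 and 103 CPM in the controls to 48.9 and 57.5 CPM, at −0.85 (standard error 0.16, edgeR adjusted p = 0.0436). The call was lost without control sample 2. Of the 21 surface partners of tenascins and lecticans, 15 were tested, with 7 above 0, 8 below and a median of −0.04. NRCAM, a neural cell adhesion molecule of the L1 family, rose from 0.574 and 0.592 CPM (14 and 17 reads) to 2.16 and 2.79 CPM (47 and 99 reads), at 2.08 (standard error 0.38, edgeR adjusted p = 0.04). NRCAM and NCAN were both called higher from low levels, with the larger value of each in chaetocin sample 2. That library had a read in 27748 genes, more than any other library, and the part of this in their values was not tested. The remaining list, of other link proteins and tenascins, had 1 of 4 genes tested, TNXB at −0.52, which was not called.

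Markers of astroglial, mesenchymal and other cell types were read in the same libraries. Of 11 astroglial and glioma markers 7 were tested. VIM had between 1148 and 2797 CPM, GFAP had between 10 and 25 reads and AQP4 had 0 reads in every library. SLC1A3, a glutamate transporter of astrocytes, had 53.4 and 49.6 CPM in the controls and 23.5 and 20.9 CPM after chaetocin. The summed level of the list was 2901 and 2365 CPM in the controls and 1818 and 1200 CPM after chaetocin, nearly all of it VIM, and SLC1A3 was called lower (−1.22, edgeR adjusted p = 0.0266). Both chaetocin samples lay below both controls in 6 of the 11 and above them in 4 (ALDH1L1, SLC1A2, S100B and SOX2), beside 26.0% and 26.8% of all tested genes. ALDH1L1 was at 1.39 on the log2 scale and SLC1A2 at 1.29, and neither was called (edgeR adjusted p = 0.217 and 0.169). S100B and SOX2 had 0 reads in the controls and at most 5 after chaetocin. The mesenchymal markers summed to 1479 and 1039 CPM in the controls and 929 and 505 CPM after chaetocin, with 6 of 7 tested and PDGFRB called lower (−1.65, edgeR adjusted p = 0.0306). Both chaetocin samples lay below both controls in 5 of the 7 and above them in COL3A1 (1.39, edgeR adjusted p = 0.307), and the groups of COL1A1 overlapped. The astroglial and mesenchymal sums were lower after chaetocin, as VCAN and CD44 were, and their part in those values was not tested.

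Beside NCAN, the neuronal markers matched in 12 of 13 genes, with 6 tested and ELAVL4 at 0 reads in every library. They summed to 97.1 and 100.7 CPM in the controls and 90.4 and 95.3 CPM after chaetocin. Both chaetocin samples lay above both controls in 6 of the 12 and below them in 2 (SYT1 and SNAP25), beside 26.8% and 26.0% of all tested genes. TUBB3 was the 1 called, higher (1.61, edgeR adjusted p = 0.0306), while SNAP25 stood at −0.95 (edgeR adjusted p = 0.23) and SYT1 at −0.37 (edgeR adjusted p = 0.275). Oligodendrocyte lineage markers summed to 5.90 and 4.46 CPM in the controls and 2.71 and 2.70 CPM after chaetocin, with 2 of 8 tested and SOX10 and OLIG1 at 0 reads throughout. Of 14 leukocyte markers 8 were tested and 4 were called higher, PTPRC, ITGAM, CD53 and FCER1G, from at most 166 reads in a library, where 1.11% of all genes were called higher. PTPRC and ITGAM, with 0 and 1 reads in the controls, passed the filter only through the chaetocin samples, so they had to differ once tested. The whole leukocyte list summed to 30.9 and 25.5 CPM in the controls and 47.8 and 27.4 CPM after chaetocin, most of it CSF1R, which was not called (−0.05, edgeR adjusted p = 0.954), while CD3E, MS4A1, AIF1 and TYROBP had 0 reads in every library. Of 7 chondrocyte markers 3 were tested and none was called by edgeR or DESeq2. An unadjusted edgeR p under 0.05 was reached by 1, beside 20.3% of all genes tested. COL2A1 had 0 reads in every library. The sums were 35.5 and 27.3 CPM in the controls and 24.7 and 19.5 CPM after chaetocin. Most of this was SOX9, at 31.6 and 24.3 CPM against 21.2 and 15.6 CPM, while the groups of MATN3 and COL9A2 overlapped. The part of these markers in the values of NCAN was not tested.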

How the data were processed

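RNA of U87MG cells was sequenced from 2 untreated and 2 chaetocin samples, grouped by the titles and treatment notes of the labels. The authors deposited whole-number read counts per Ensembl gene, 1 table per sample, without normalization. The submitters' processing notes name cutadapt, TopHat, TopHat2, SAMtools and GRCh37. The counting tool, the annotation and the use of strand are not given in the sources used here. The labels and the methods differ in the RNA kit and in the cells seeded per well.

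The edgeR 4.0.16 quasi-likelihood test (robust, R 4.3.3) was run on the counts with filterByExpr (minimum count 10), TMM factors, no block, and Benjamini-Hochberg adjustment over 16416 genes at 0.05. Totals ranged from 21241984 to 32590479 counts. Symbols and gene positions came from GENCODE v29 on GRCh38, which held 52338 of the 57905 identifiers, and promoter bases from RefSeq on GRCh38.p14. Some items, among them 1 of the 7 promoters matched, are not reported here. These positions are not those of the GRCh37 build used for the counts. A gene with 0 reads was bounded at 3 reads. Alternatives were RLE and upper-quartile factors, no filter, 10 counts in every sample, a replicate block, DESeq2 1.42.0 and leaving out each sample.

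The 10 genes, the partner lists and the markers were chosen with earlier results of these data known, and the lists were filled by role. The text names all 10 genes, each called gene of a partner list, the nearest coding genes of VCAN and NCAN, the link protein gene beside each lectican and the 3 genes most like VCAN and NCAN in profile. HAS1, HAS3, genes that overlap a member and the markers stand beside that rule. No set test was made, and no p-value is printed for the 10 genes, whose calls are given as a description.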

Additional observations from a re-analysis of the deposited data

How the results depend on the processing

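Of the values for the matrix genes, 1 reversed: HAS2 went to −1.24 without chaetocin sample 1, and to 1.44 without chaetocin sample 2. The log2 fold change stayed negative under every alternative run for VCAN (−1.03 to −0.78), BCAN (−1.11 to −0.35), HAPLN3 (−0.34 to −0.04), TNC (−0.90 to −0.14) and CD44 (−1.68 to −0.85). NCAN, which had to differ once it passed a filter, could not be tested with 10 counts in every sample, where 0 members were called higher, 1 lower, and all genes gave 114 higher and 80 lower. Without the filter, 1 member was called higher and 2 lower, with 6 partner genes higher and 16 lower, and 787 genes higher and 759 lower in all. By DESeq2, 1 member and 3 partner genes were called higher, and 2 members and 12 partner genes lower. Of the 31692 genes it fitted, 385 were higher and 481 lower. Replicates share only a number in the labels, and the difference of sample 1 minus sample 2 correlated across genes between the groups with r = 0.123. With the replicate block, 1 member was called higher and 2 lower, 5 partner genes higher and 20 lower, and 1036 genes higher and 1053 lower in all. Leaving out each sample gave 1 to 2 members higher and 0 to 3 lower, 1 to 7 partner genes higher and 3 to 26 lower, and 215 to 1332 genes higher and 97 to 1673 lower in all. The highest of these counts, apart from members called higher, came without chaetocin sample 1, where the lone chaetocin sample is assumed to vary like the controls. Without chaetocin sample 2, 712 genes were higher and 940 lower. RLE factors gave 177 higher and 121 lower. Upper-quartile factors gave 246 higher and 88 lower, or 73.7% of calls higher against 59.9%, with a median log2 fold change of all genes of 0.0848. CSPG4 was not called with upper-quartile factors or with 10 counts in every sample. The causes of these changes were not tested. Depth limits ACAN, HAPLN1 and TNR, at 3 reads or fewer in every library, and BCAN, HAPLN3 and NCAN, at fewer than 100.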

Other observations

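Of the genes tested, 13, NCAN among them, had 0 reads in both controls. Such genes pass the filter only through the chaetocin samples, so no call other than higher was open to them. Of the 13, 7 were called higher, beside 1.11% of all genes, and 8 had a higher level in chaetocin sample 2 than in sample 1. No tested gene had 0 reads in both chaetocin samples. Among the 12 others, the one nearest to NCAN, by the root mean square difference of centred log2 CPM over the 4 samples, was FGFR4, a fibroblast growth factor receptor, at 0.0765. FGFR4 had 0 reads in both controls and 21 and 83 reads in the chaetocin samples. IDO1, an enzyme of tryptophan breakdown, followed at 0.556 with 16 and 35 reads, and UCA1, a long noncoding RNA, at 0.616 with 22 and 33 reads. With 12 genes compared over 4 samples the likeness is a description.

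For VCAN, 1218 genes of like level were compared. Of these, MICAL2, an actin oxidising enzyme, was nearest at 0.0374, with 423 and 409 CPM in the controls and 251 and 216 CPM after chaetocin. IL6ST, the shared receptor subunit of the interleukin-6 family, was at 0.0452, and ZBTB38, a zinc finger protein that binds methylated DNA, at 0.0483. These 3 had CPM values between 176 and 262 in the chaetocin samples and between 327 and 453 in the controls.

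The letters of the promoter windows, from 250 bases before to 50 after the start in RefSeq's table on GRCh38.p14, are given for 6 of the 7 members matched. CpG pairs numbered 33 in ACAN, 31 in BCAN, 18 in TNC, 18 in CD44, 15 in HAPLN3 and 6 in HAPLN1, beside a median of 14 over 35116 promoters. GC content ran from 50.0% in HAPLN1 to 77.0% in ACAN, and the median was 58.7%. GGGCGG, searched on both strands, was found 8 times in ACAN, 5 in BCAN, 2 in CD44 and 1 in TNC, and 45.0% of all promoters held it. Among the 6, ACAN had the most and HAPLN1 the fewest CpG pairs, and both had at most 3 reads in a library.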
